A study of Mus musculus with 10 samples.

Results

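The genes of the cGAS-STING pathway were examined in RNA sequencing of B16F10 tumors, grown from a mouse melanoma line and made to overexpress Ly86 or given the vector instead. Ly86 encodes MD-1, a secreted partner of the receptor RP105, and is itself expressed by macrophages and B cells. Of 9 listed genes (Cgas, Sting1, Tbk1, Irf3, Trex1, Enpp1, Ifnb1, Ifnar1 and Ifnar2), chosen by symbol, 8 had a row among the 27919 genes of the table. Ifnb1 had no row and was not analysed here; no row of the table was at 0 in every library. The 4 Ly86 tumors gave 5 libraries and the 3 Vector tumors gave 5 libraries, because a pair of pieces was sequenced from Ly86 tumor 1 and from Vector tumors 1 and 2. Every mouse, in either group, had been given anti-PD-1 and anti-CTLA4 in 4 rounds, a checkpoint blockade that frees T cells from inhibition, and the tumors were snap-frozen. The promoter of the Ly86 construct, whether each line was 1 clone, and the strain and age of the mice are not given in the sources used here.

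The pathway turns DNA in the cytosol into an interferon signal. The enzyme cGAS binds double-stranded DNA and makes the cyclic dinucleotide cGAMP, which binds STING on the endoplasmic reticulum. STING then moves to the Golgi and recruits the kinase TBK1, which phosphorylates the transcription factor IRF3, an inducer of interferon beta. TREX1 degrades cytosolic DNA and ENPP1 hydrolyses extracellular cGAMP, and both limit the pathway. Interferon beta acts through the receptor chains IFNAR1 and IFNAR2. In tumors, the pathway is known for its part in the priming of T cells by dendritic cells.

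Expression is given as TPM (transcripts per 1000000, a measure per transcript length) or as log2(TPM + 1), the scale of the deposited values. Read depth was unknown. The check of the overexpressed gene gave 49.2 to 81.9 TPM of Ly86 in the Ly86 libraries and 6.24 to 80.9 TPM in the Vector libraries, so that 1 Vector library, the first piece of tumor 2, lay inside the range of the Ly86 group. Averaged by tumor, Ly86 stood at 5.98 ± 0.21 log2(TPM + 1) in Ly86 tumors (SD, n = 4) and 4.29 ± 0.99 in Vector tumors (SD, n = 3). The groups did not overlap (log2 difference 1.69, SE 0.40, limma adjusted p = 0.437), with Vector tumor 2 averaged from pieces at 80.9 and 7.85 TPM. Macrophages also express Ly86, and the part of the construct in these values was not tested. Melanocyte markers were present in every library, with summed levels of 16138 to 23645 TPM in Ly86 libraries and 11801 to 22262 TPM in Vector libraries. The macrophage markers summed to 2018 to 3998 TPM in Ly86 libraries and 394 to 5677 TPM in Vector libraries. The first piece of Vector tumor 2 held the highest macrophage sum and the lowest melanocyte sum. In such bulk samples, fewer cells of a type and less RNA per cell cannot be told apart.

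None of the 8 genes differed between Ly86 and Vector tumors past the threshold, an adjusted p of 0.05 in limma over all genes. The count was 0 of 8, beside 0 of 14556 tested genes (0%). At an unadjusted limma p under 0.05, 1 of the 8 (Ifnar2, higher in Ly86 tumors) was reached, beside 10.8% of all tested genes (5.78% higher and 4.97% lower). With limma's array weights, 0 of the 8 passed, while 1832 of all genes did. The log2 difference, Ly86 minus Vector, was above 0 for 6 of the 8, where 43.8% of all tested genes were above 0. Its median was 0.13 over the 8 genes and -0.037 over all tested genes. The groups overlapped for every one of the 8 genes. They did not overlap for 10.5% of all tested genes (4.71% higher and 5.75% lower in Ly86 tumors). With 8 genes, a count of 0 is close to that share.

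By mean level over the tumors, the receptor chain gene Ifnar2 stood at 63.8 TPM and Sting1 at 62.6 TPM. Irf3 followed at 52.1 TPM, Ifnar1 at 48.6, Trex1 at 31.8 and Tbk1 at 30.1 TPM. Cgas at 6.91 TPM and Enpp1 at 2.96 TPM were the lowest. From one gene to the next in this order, the difference exceeded its SD over the 7 tumors, and had 1 sign in all 7, for Ifnar1 over Trex1 (16.8 ± 14.5 TPM), Tbk1 over Cgas (23.2 ± 4.42 TPM) and Cgas over Enpp1 (3.96 ± 1.67 TPM). The other neighbours differed by less than that SD. In every library the sensor Cgas stood below Sting1, Tbk1 and Irf3, which act downstream of it.

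**Figure D1:**
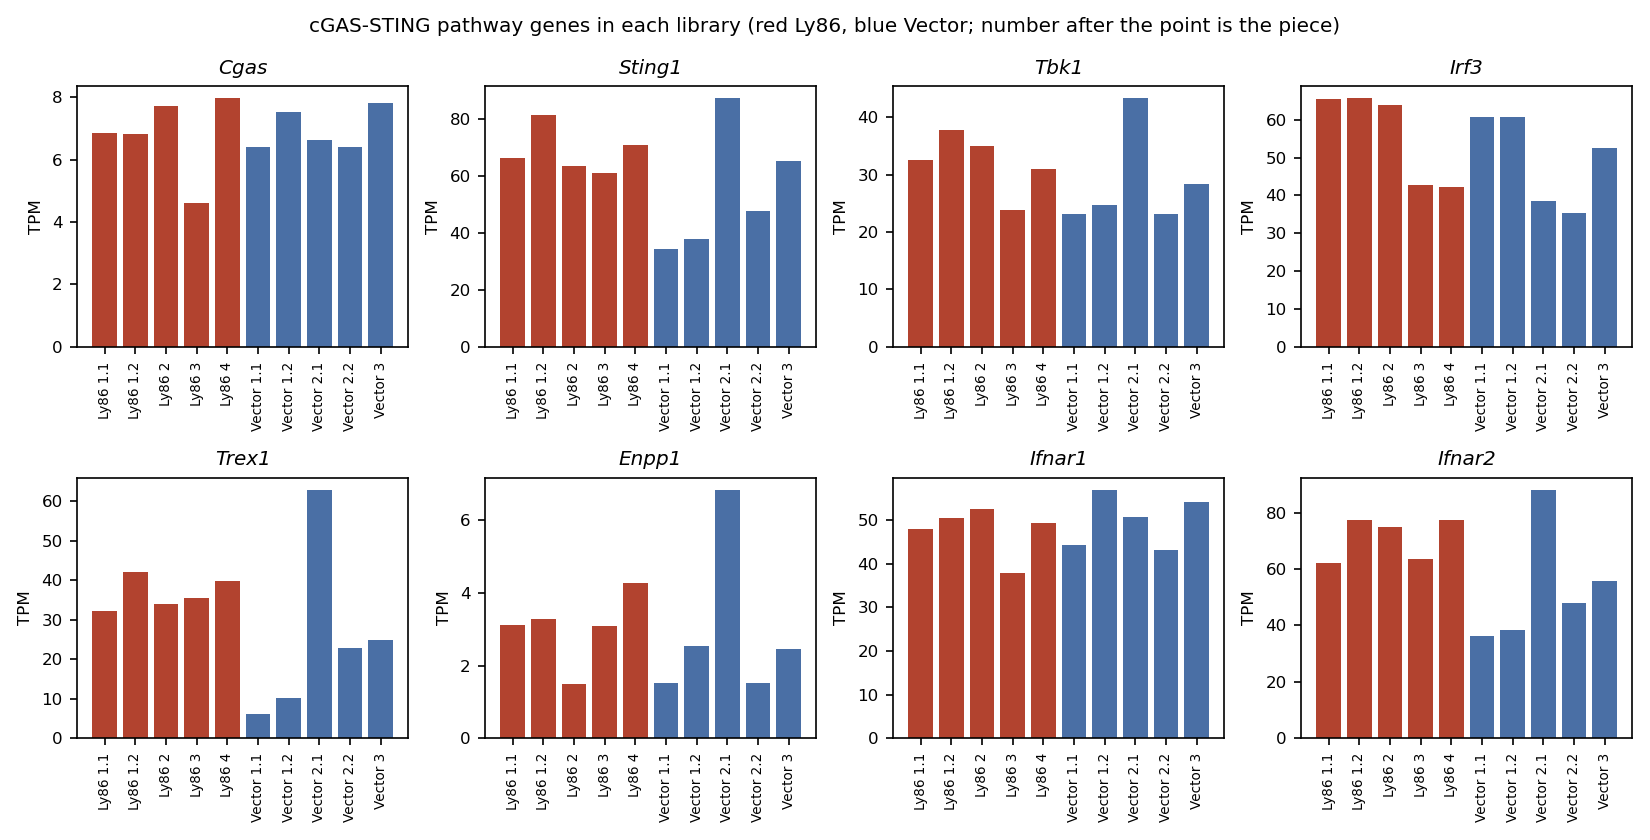
Level of each of the 8 pathway genes, in TPM on axes that start at 0, in 5 Ly86 libraries (red, left) and 5 Vector libraries (blue, right); each bar is 1 library and pieces of a tumor stand side by side. The first piece of Vector tumor 2 is the highest library for 5 of the 8 genes, and Trex1 is lowest in the pieces of Vector tumor 1, at 6.21 and 10.3 TPM.

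Promoters are shown for Cgas, Ifnar1 and Ifnar2, since Cgas and Ifnar1 were the pair that varied most alike and the receptor chains differed from each other (values below). The windows are the 250 bases before the RefSeq start on build GRCm38.p6, which differs from the mm39 build named in the submitters' processing notes, and no annotated exon lay in them. They are written 5′ to 3′ on the strand of the gene, at chr9:78443238-78443487 (minus strand) for Cgas, chr16:91484965-91485214 (plus strand) for Ifnar1 and chr16:91372533-91372782 (plus strand) for Ifnar2. Capitals mark matches to the motifs searched.
Cgas: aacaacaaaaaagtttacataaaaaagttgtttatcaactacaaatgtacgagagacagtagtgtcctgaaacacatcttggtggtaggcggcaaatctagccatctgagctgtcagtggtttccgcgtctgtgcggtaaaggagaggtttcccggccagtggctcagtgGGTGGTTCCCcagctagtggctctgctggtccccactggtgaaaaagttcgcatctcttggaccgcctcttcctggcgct
Ifnar1: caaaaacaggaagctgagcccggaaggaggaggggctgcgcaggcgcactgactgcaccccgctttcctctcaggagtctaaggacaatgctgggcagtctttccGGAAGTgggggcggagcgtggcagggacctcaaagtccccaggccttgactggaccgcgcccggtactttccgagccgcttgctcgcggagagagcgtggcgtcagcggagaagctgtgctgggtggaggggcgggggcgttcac
Ifnar2: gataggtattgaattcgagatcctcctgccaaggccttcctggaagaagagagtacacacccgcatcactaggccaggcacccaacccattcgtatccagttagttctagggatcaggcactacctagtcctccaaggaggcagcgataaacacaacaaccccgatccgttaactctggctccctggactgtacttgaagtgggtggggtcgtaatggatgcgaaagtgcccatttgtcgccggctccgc

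The motifs were searched on both strands, with N for any base. The interferon-stimulated response element GAAA-NN-GAAA (ISRE) was found in 2.98% of 32851 promoter windows of the same length, the ETS core GGAAGT in 19.7% and the NF-kB-type motif GGGA-NNNN-CC in 17.6%. Cgas held 1 match to the NF-kB-type motif, on the minus strand, starting at position -80 from the start. Ifnar1 held 1 ETS match at position -145, and Ifnar2 held no match to these letters. The matches are a description of sequence and were not tied to binding or to the values below. Promoter windows were matched for Cgas, Tbk1, Irf3, Trex1, Enpp1, Ifnb1, Ifnar1 and Ifnar2, 8 of the 9 listed genes. None of them held the interferon-stimulated response element as spelled here, which for so few windows is near the share of 2.98%. Elements with another spacing between the GAAA repeats were not searched.

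Cgas, the DNA sensor, overlapped between the groups. It had 6.85 and 6.81 TPM in the pieces of Ly86 tumor 1 and 7.71, 4.61 and 7.96 TPM in Ly86 tumors 2, 3 and 4, against 6.41 and 7.53 TPM in the pieces of Vector tumor 1, 6.62 and 6.40 TPM in those of Vector tumor 2 and 7.81 TPM in Vector tumor 3. Ly86 tumor 3 was the low one, and the other libraries of both groups covered the same range. The mean was 2.94 ± 0.31 log2(TPM + 1) in Ly86 tumors (SD, n = 4) and 3.01 ± 0.12 in Vector tumors (SD, n = 3). The log2 difference was -0.077 (SE 0.20, limma adjusted p = 0.928), with a 95% interval of -0.54 to 0.38. Without Ly86 tumor 3 it was 0.072. An annotated pseudogene, Gm8093, overlaps exons of Cgas on the other strand, which leaves the value uncertain where counting ignored strand.

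Sting1, the adaptor that binds cGAMP, had 66.4 and 81.4 TPM in the pieces of Ly86 tumor 1 and 63.5, 61.3 and 71.0 TPM in Ly86 tumors 2, 3 and 4. In the Vector group it had 34.2 and 37.8 TPM in the pieces of tumor 1, 87.3 and 47.8 TPM in those of tumor 2 and 65.2 TPM in tumor 3. The Ly86 tumors were close together, while Vector tumor 1 and the second piece of Vector tumor 2 lay below all of them and the first piece of Vector tumor 2 lay above. The mean was 6.09 ± 0.12 log2(TPM + 1) in Ly86 tumors (SD, n = 4) and 5.76 ± 0.48 in Vector tumors (SD, n = 3). Ly86 minus Vector gave 0.33 on the log2 scale (SE 0.21, limma adjusted p = 0.601, 95% interval -0.15 to 0.81). Leaving out Vector tumor 1 gave 0.047, dropping piece 1 of Vector tumor 2 gave 0.47, and limma's array weights gave 0.083.

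Tbk1 encodes the kinase that STING recruits. Its level was 32.6 and 37.8 TPM in the pieces of Ly86 tumor 1 and 34.9, 23.8 and 31.0 TPM in Ly86 tumors 2, 3 and 4, against 23.1 and 24.7 TPM in the pieces of Vector tumor 1, 43.3 and 23.2 TPM in those of Vector tumor 2 and 28.5 TPM in Vector tumor 3. Ly86 tumor 3 lay with the low Vector libraries, and the highest library was the first piece of Vector tumor 2. On the log2 scale the groups differed by 0.14 (SE 0.17, limma adjusted p = 0.799, 95% interval -0.24 to 0.53). Dropping Vector tumor 1 gave 0.037 and dropping the first piece of Vector tumor 2 gave 0.29. With first pieces alone the difference was -0.014, and with second pieces alone 0.30.

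Irf3, the transcription factor activated by TBK1, separated tumors in an order of its own. It had 65.5 and 65.6 TPM in the pieces of Ly86 tumor 1, 63.9 TPM in Ly86 tumor 2, and 42.8 and 42.1 TPM in Ly86 tumors 3 and 4, against 60.7 and 60.8 TPM in the pieces of Vector tumor 1, 38.4 and 35.4 TPM in those of Vector tumor 2 and 52.4 TPM in Vector tumor 3. High and low tumors occurred in both groups, and pieces of a tumor were close to each other. The groups differed by 0.096 on the log2 scale (SE 0.23, limma adjusted p = 0.921, 95% interval -0.43 to 0.62). Leaving out Vector tumor 2 turned this to -0.10, leaving out Ly86 tumor 1 turned it to -0.0097, and leaving out Vector tumor 1 gave 0.25. Exons of Irf3 overlap those of Bcl2l12 on the other strand in the GENCODE annotation, and no source used here states whether counting used strand, so its value is uncertain. Bcl2l12, named for this overlap, differed by -0.069 on the log2 scale (SE 0.17, limma adjusted p = 0.925).

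Trex1, the exonuclease that clears cytosolic DNA, varied most of the 8 genes. Its level was 32.2 and 42.2 TPM in the pieces of Ly86 tumor 1 and 34.0, 35.6 and 39.9 TPM in Ly86 tumors 2, 3 and 4. In the Vector group it was 6.21 and 10.3 TPM in the pieces of tumor 1, 62.9 and 22.7 TPM in those of tumor 2 and 24.99 TPM in tumor 3. All Ly86 libraries lay above 4 of the 5 Vector libraries and below the first piece of Vector tumor 2. The mean was 5.23 ± 0.094 log2(TPM + 1) in Ly86 tumors (SD, n = 4) and 4.39 ± 1.09 in Vector tumors (SD, n = 3). The log2 difference was 0.85 (SE 0.43, limma adjusted p = 0.511, 95% interval -0.14 to 1.83). The estimate was 0.24 when Vector tumor 1 was left out, 1.29 when Vector tumor 2 was, and 1.08 when only the first piece of the second tumor was. Across the 7 tumors its SD of 0.78 was at the 91.4th percentile of all tested genes, whose median SD was 0.25. Exons of Trex1 overlap those of Atrip on the same strand, so reads there can be split between the genes. Atrip, which acts in the DNA damage response and is named for this overlap, differed by -0.25 on the log2 scale (SE 0.21, limma adjusted p = 0.693).

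Enpp1, the hydrolase of extracellular cGAMP, was the lowest of the 8 genes. It had 3.11 and 3.27 TPM in the pieces of Ly86 tumor 1 and 1.5, 3.08 and 4.26 TPM in Ly86 tumors 2, 3 and 4, against 1.51 and 2.54 TPM in the pieces of Vector tumor 1, 6.83 and 1.53 TPM in those of Vector tumor 2 and 2.45 TPM in Vector tumor 3. The lowest library was Ly86 tumor 2 and the highest the first piece of Vector tumor 2. Between the groups the difference was 0.11 on the log2 scale (SE 0.29, limma adjusted p = 0.927, 95% interval -0.56 to 0.79). Its direction turned in 5 of 20 alternatives, of which the replicate block and leaving out Ly86 tumor 4 gave the same estimate. Leaving out Ly86 tumor 4 gave -0.033 and leaving out Vector tumor 1 gave -0.017. Dropping piece 1 of Vector tumor 2 gave 0.39.

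**Figure D2:**
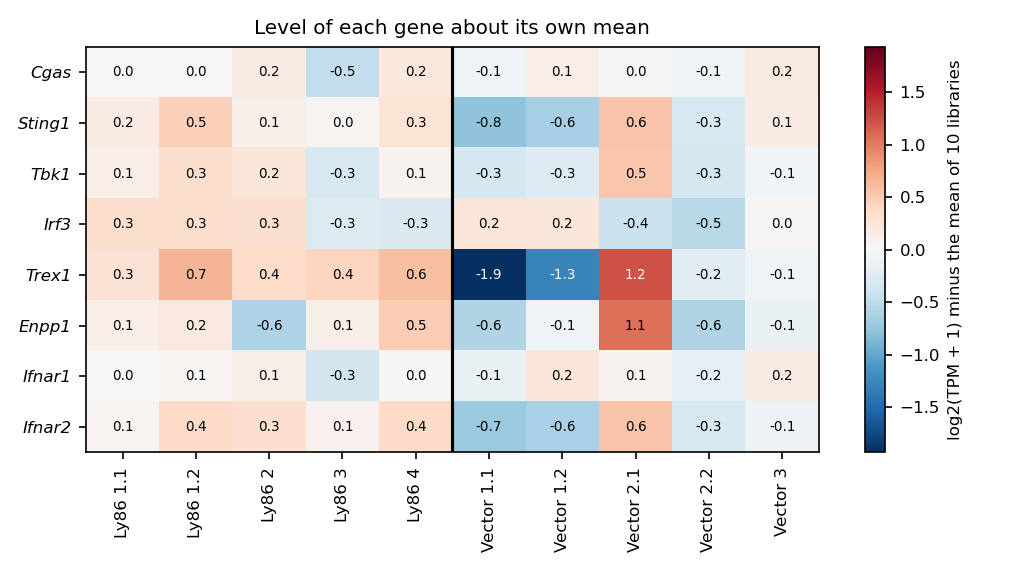
Log2(TPM + 1) of each gene minus its mean over the 10 libraries, with Ly86 libraries left of the black line and Vector libraries right of it; red is above the gene's mean and blue below. Sting1, Trex1 and Ifnar2 are low in the pieces of Vector tumor 1 and high in the first piece of Vector tumor 2, and Irf3 is low in both pieces of Vector tumor 2.

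The interferon receptor chains differed from each other in how they varied. Ifnar1 had 47.9 and 50.4 TPM in the pieces of Ly86 tumor 1 and 52.6, 37.8 and 49.2 TPM in Ly86 tumors 2, 3 and 4, against 44.3 and 56.9 TPM in the pieces of Vector tumor 1, 50.6 and 43.0 TPM in those of Vector tumor 2 and 54.1 TPM in Vector tumor 3. Ly86 tumor 3 was again the lowest, and the rest overlapped. Ly86 minus Vector was -0.099 on the log2 scale (SE 0.13, limma adjusted p = 0.828, 95% interval -0.41 to 0.21), and it was 0.0015 without Ly86 tumor 3. Its SD over the 7 tumors, 0.17, was the smallest of the 8 genes.

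Ifnar2 had 62.2 and 77.4 TPM in the pieces of Ly86 tumor 1 and 75.0, 63.4 and 77.4 TPM in Ly86 tumors 2, 3 and 4. In the Vector group it had 36.2 and 38.2 TPM in the pieces of tumor 1, 88.0 and 48.0 TPM in those of tumor 2 and 55.7 TPM in tumor 3. Of the Ly86 tumors 3 of 4 lay above every Vector tumor, and Ly86 tumor 3, at 6.01 log2(TPM + 1), lay just below Vector tumor 2, at 6.04. The mean was 6.17 ± 0.13 log2(TPM + 1) in Ly86 tumors (SD, n = 4) and 5.71 ± 0.41 in Vector tumors (SD, n = 3). On the log2 scale the difference was 0.46 (SE 0.18), with a 95% interval of 0.039 to 0.89 before adjustment and a limma adjusted p of 0.453. Leaving out Vector tumor 1 gave 0.24, dropping piece 1 of Vector tumor 2 gave 0.61, and over 21 alternatives the adjusted p ranged from 0.0535 to 1. Gm21970 overlaps exons of Ifnar2 on the same strand, so reads there can be split between these genes.

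The log2 ratio of Ifnar2 to Ifnar1, on the log2(TPM + 1) scale, was 0.49, 0.51, 0.73 and 0.64 in Ly86 tumors 1 to 4, against -0.42, 0.47 and 0.042 in Vector tumors 1 to 3. It averaged 0.59 ± 0.12 in Ly86 tumors (SD, n = 4) and 0.029 ± 0.45 in Vector tumors (SD, n = 3). With pieces averaged, each Vector tumor was below each Ly86 tumor, by a narrow margin for Vector tumor 2. The pieces of that tumor gave 0.79 and 0.15, so the first lay above every Ly86 library and the libraries of the groups overlapped. It was computed after the values of both chains had been seen and was not tested.

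**Figure D3:**
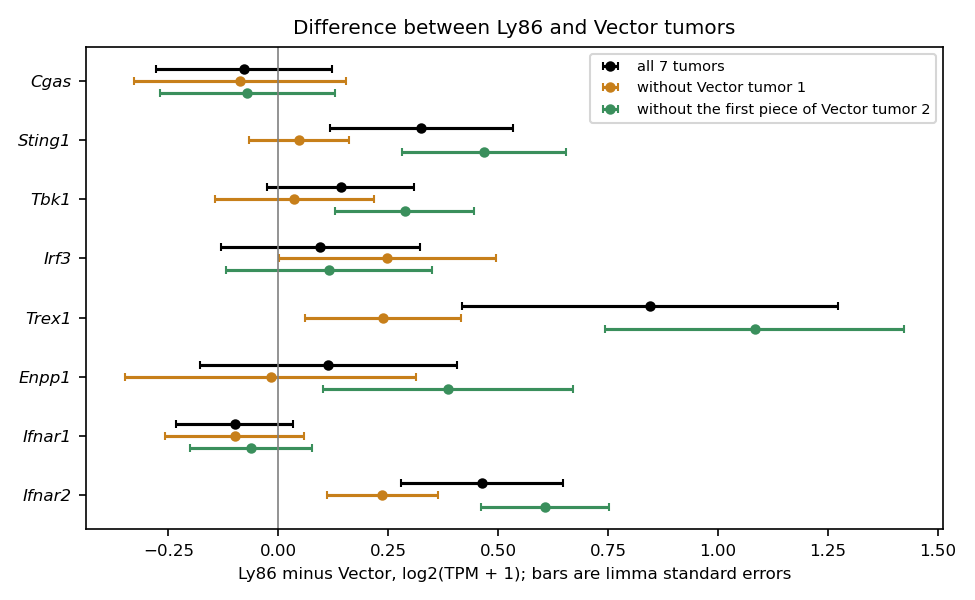
Difference between Ly86 and Vector tumors for each gene, Ly86 minus Vector on the log2(TPM + 1) scale, as the limma estimate with its standard error, for all 7 tumors (black), for 6 with Vector tumor 1 left out (orange), and for 7 with the first piece of Vector tumor 2 left out (green). Trex1 stands at 0.85 with all tumors, 0.24 without Vector tumor 1 and 1.08 without that piece.

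Pieces of 1 tumor differed for some of these genes as much as groups did. In Vector tumor 2 the first piece exceeded the second by 1.63 log2 units for Enpp1, 1.43 for Trex1, 0.87 for Tbk1, 0.86 for Ifnar2 and 0.85 for Sting1. The same pieces differed by 0.23 for Ifnar1, 0.11 for Irf3 and 0.042 for Cgas, where the median absolute difference over all tested genes was 0.36. In Vector tumor 1 the largest difference between pieces was -0.64, for Trex1, first minus second, with a median over all genes of 0.21. In Ly86 tumor 1 it was -0.38, also for Trex1, with a median of 0.20. The sensor and Irf3 thus stayed close between the pieces of Vector tumor 2, while the adaptor, the kinase, the regulators and Ifnar2 did not.

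**Figure D4:**
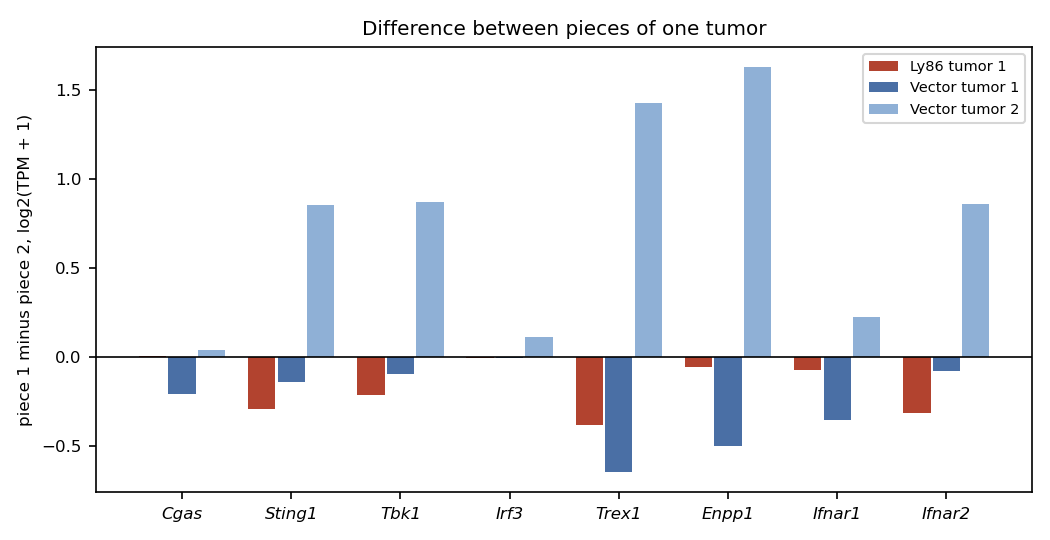
First piece minus second piece on the log2(TPM + 1) scale for the 8 genes in the 3 divided tumors, Ly86 tumor 1 (red), Vector tumor 1 (dark blue) and Vector tumor 2 (light blue). The bars of Vector tumor 2 reach 1.43 for Trex1 and 1.63 for Enpp1, and that of Irf3 reaches 0.11.

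Macrophage markers were highest in the library where Trex1, Sting1 and Ifnar2 were highest, the first piece of Vector tumor 2. They differed widely between the pieces of that tumor, where Cgas, Irf3 and Ifnar1 differed little. This was not particular to macrophages. The T and NK cell, dendritic cell, fibroblast, neutrophil and endothelial sums also peaked in that first piece. The T and NK cell sum was 9.35 and 8.59 TPM in the pieces of Vector tumor 1. It was 305 and 48.8 TPM in those of Vector tumor 2 and 59.1 TPM in Vector tumor 3. All 18 macrophage and monocyte markers averaged higher in Ly86 tumors, and 0 of them passed limma. None of these 18 was at 0 in any library. Their sum was 394 and 634 TPM in the pieces of Vector tumor 1, where Trex1, Sting1 and Ifnar2 were lowest, and 5677 TPM in the first piece of Vector tumor 2, where those 3 genes were highest. In the second piece of Vector tumor 2 the macrophage sum was 404 TPM, close to that of Vector tumor 1, and Trex1 stood at 22.7 TPM there. The T and NK cell markers, of which 11 of 11 tested averaged higher in Ly86 tumors, summed to 92.3 to 205 TPM in Ly86 libraries and 8.59 to 305 TPM in Vector libraries, with Ncr1 at 0 in at least 1 library. The dendritic cell markers, 7 of 8 tested higher, summed to 112 to 231 TPM in Ly86 libraries and 26.0 to 272 TPM in Vector libraries, with Xcr1, Cd209a and Siglech at 0 in at least 1 library. All 10 fibroblast markers averaged higher in Ly86 tumors, with sums of 965 to 2721 TPM in Ly86 libraries and 117 to 4793 TPM in Vector libraries, and none was at 0. Neutrophil markers (4 of 4 tested higher) summed to 8.97 to 81.6 TPM in Ly86 libraries and 2.10 to 96.2 TPM in Vector libraries. The 3 tested B and plasma cell markers also averaged higher in Ly86 tumors, among them Ighm with a log2 difference of 2.47 (SE 0.54, limma adjusted p = 0.437). Of 8 endothelial markers 4 averaged higher, as did 5 of 10 melanocyte markers, 0 of 6 keratinocyte markers and 0 of 6 skeletal muscle markers. The highest sums of keratinocyte and skeletal muscle markers were nevertheless in Ly86 tumor 1. Its first and second pieces had 2419 and 109 TPM of keratinocyte markers and 22.2 and 954 TPM of muscle markers. The part of these cells in the differences of the pathway genes was not tested.

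The genes most like each member were taken as the 3 tested genes with the smallest root mean square difference of centred log2 values over the 7 tumors. For Sting1 these were Lgals9, Btla and Gch1, at 0.079 to 0.093 log2 units, where Sting1 itself varied by 0.31 about its mean. For Trex1 they were Lrp1, Gda and Pira12, at 0.12 to 0.14, where Trex1 varied by 0.72. Ifnar2 was nearest to Anxa4, Pcolce and Ctsa, at 0.024 to 0.068, and Tbk1 to Man2b1, Mfsd9 and Arid3a, at 0.042 to 0.051. Cgas had Trip11 at 0.050 and Ccser2 at 0.054 among its nearest genes, and those of Ifnar1 were Map2k4, Tent4a and Hlcs, at 0.030 to 0.037. Irf3 was nearest to Prob1, Atat1 and Fv1, at 0.067 to 0.077, and Enpp1 to Cpz, Lrrc51 and Tek, at 0.067 to 0.11. Among the members, Cgas and Ifnar1 were the most alike pair at 0.084 and Sting1 and Ifnar2 the next at 0.14, while Irf3 and Trex1 were the least alike at 0.89. With 7 tumors and 14556 genes, near matches occur for any gene, and the values are a description.

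The rest of the pathway was read from lists, each as counts of limma calls, which were 0 in both directions for every list. For comparison, 43.8% of all tested genes had a log2 difference above 0, and 10.8% were at an unadjusted p under 0.05 (5.78% higher and 4.97% lower). Among DNA sensors, 6 of 12 tested genes were above 0 and 6 below, with 4 and 3 of them at an unadjusted p under 0.05. The 6 above were Aim2, Zbp1 and the interferon-inducible Ifi203, Ifi204, Ifi205 and Mndal, near-identical copies in part whose separate values are uncertain. Aim2, the inflammasome sensor of DNA, averaged 3.20 ± 0.16 log2(TPM + 1) in Ly86 tumors (SD, n = 4) and 1.97 ± 0.62 in Vector tumors (SD, n = 3), a log2 difference of 1.23 (SE 0.28, limma adjusted p = 0.437). With pieces averaged, the groups did not overlap for Aim2, as for 10.5% of all tested genes. This rested on the averaging of pieces that differed. The log2 difference of Aim2 was 0.45 (SE 0.67) with first pieces alone and 2.01 (SE 0.26) with second pieces alone. Hmgb1, a chromatin protein that also binds cytosolic DNA, averaged 9.36 ± 0.057 in Ly86 tumors and 9.76 ± 0.16 in Vector tumors, a log2 difference of -0.39 (SE 0.10, adjusted p = 0.437).

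Of 14 nucleases and factors that limit cytosolic nucleic acid, 9 were above 0 and 5 below, with a median of 0.26 and 2, both higher, at an unadjusted p under 0.05. Rnaset2b, a lysosomal ribonuclease with the close copy Rnaset2a, averaged 7.83 ± 0.078 in Ly86 tumors (SD, n = 4) and 7.39 ± 0.20 in Vector tumors (SD, n = 3). Pld3, a lysosomal exonuclease, differed by 0.42 (SE 0.18), or 0.27 without Vector tumor 1. In the list of cGAMP breakdown and transport, 6 of 11 tested genes were above 0 with a median of 0.050, and 1 higher and 2 lower genes were at an unadjusted p under 0.05. Smpdl3a, a cGAMP hydrolase, averaged 5.89 ± 0.092 in Ly86 tumors (SD, n = 4) and 5.36 ± 0.27 in Vector tumors (SD, n = 3). Lrrc8d, a subunit of volume-regulated anion channels, averaged 4.48 ± 0.024 in Ly86 tumors and 4.80 ± 0.026 in Vector tumors. The groups did not overlap for Smpdl3a or Lrrc8d, as for 10.5% of all tested genes.

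For STING trafficking, modification and turnover, 8 of 21 tested genes were above 0 and 13 below; the median was -0.075 and the mean 0.072, of opposite sign. At an unadjusted p under 0.05 there were 2 higher and 2 lower genes. Rnf26, a ubiquitin ligase of the endoplasmic reticulum, differed by -0.36 (SE 0.13) and Insig1, a regulator of sterol synthesis, by -0.50 (SE 0.19). Among 17 kinases, adaptors and factors downstream of STING, 10 were above 0, with a median of 0.082 and 0 at an unadjusted p under 0.05. The largest difference there was that of Irf7, the interferon-induced factor, at 1.22 (SE 0.54), followed by Irf5 at 0.95 (SE 0.49). Without Vector tumor 1 these were 0.50 for Irf7 and 0.27 for Irf5, and the median of the list was 0.015. Of 11 tested genes of the noncanonical STING outputs, 7 were above 0, with a median of 0.056 and 2 higher genes at an unadjusted p under 0.05. The autophagy gene Gabarap differed by 0.28 (SE 0.092) and Tnf by 1.22 (SE 0.47), the second of which was 0.79 without Vector tumor 1.

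Of 10 genes of receptor signaling, 9 were above 0 with a median of 0.51 and 2, both higher, at an unadjusted p under 0.05. Socs1, which restrains the receptor's kinases, averaged 3.47 ± 0.45 log2(TPM + 1) in Ly86 tumors (SD, n = 4) and 1.92 ± 0.79 in Vector tumors (SD, n = 3), and Irf9 differed by 0.64 (SE 0.23). All 23 tested IRF3 and interferon target genes were above 0, with a median of 0.88 and 10 at an unadjusted p under 0.05, beside the 43.8% and 10.8% of all tested genes. Ifit1, whose separate value is uncertain beside its close copies, averaged 4.94 ± 0.37 in Ly86 tumors and 3.94 ± 0.70 in Vector tumors, and the chemokine gene Ccl5 averaged 6.85 ± 0.42 in Ly86 tumors and 5.35 ± 1.20 in Vector tumors. The median of these targets was 0.38 without Vector tumor 1. Of 10 tested RNA sensors and nucleic acid toll-like receptors, 10 were above 0 with a median of 0.63 and 2 were at an unadjusted p under 0.05. Tlr3 differed by 0.62 (SE 0.19) and the adaptor Myd88 by 0.58 (SE 0.22). With first pieces alone these were 0.62 and 0.23, and with second pieces alone 0.61 and 0.93. Without Vector tumor 1 the medians were 0.20 for DNA sensors, 0.19 for receptor signaling, 0.30 for RNA sensors and 0.042 for nucleases. They were 0.048 for noncanonical outputs, -0.056 for trafficking and -0.0082 for cGAMP handling. Among the named genes, the log2 difference without that tumor was 0.82 for Ccl5, 0.61 for Ifit1, 0.36 for Irf9 and 0.32 for Myd88, each over 1.5 times smaller than with it. List medians also moved with the choice of piece, given here for first and then second pieces alone. They were 0.58 and 1.20 for targets, 0.23 and 0.83 for DNA sensors, and 0.23 and 0.74 for receptor signaling. RNA sensors had 0.32 and 1.14, nucleases 0.14 and 0.33, cGAMP handling -0.11 and 0.15, and noncanonical outputs 0.11 and 0.12. Kinases and adaptors had 0.076 and 0.023, and trafficking -0.015 and -0.071. None of the genes named here passed limma over all genes. Besides Aim2, Smpdl3a and Lrrc8d, the groups did not overlap for Hmgb1, Rnaset2b, Rnf26, Socs1, Ifit1, Ccl5, Myd88 and Gabarap. They overlapped for Pld3, Insig1, Irf7, Irf5, Irf9, Tlr3 and Tnf. These genes were picked by the smallest p in their list, which favours groups that do not overlap. The part of the immune and fibroblast markers, which also averaged higher in Ly86 tumors, was not tested.

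Interferon genes themselves were nearly unmeasured. Of 19 type I and type III interferon genes in the list, 2 had a row, and none reached the minimum mean of 1 TPM. Ifna2 was listed at 0.22 TPM in Ly86 tumor 3 and 0.49 TPM in Ly86 tumor 4 and at 0 in the other libraries of both groups. Ifnz was listed at 0.07 and 0.20 TPM in Ly86 tumors 2 and 3 and at 0.08 TPM in the second piece of Vector tumor 2. No fold was taken from these values.

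**Figure D5:**
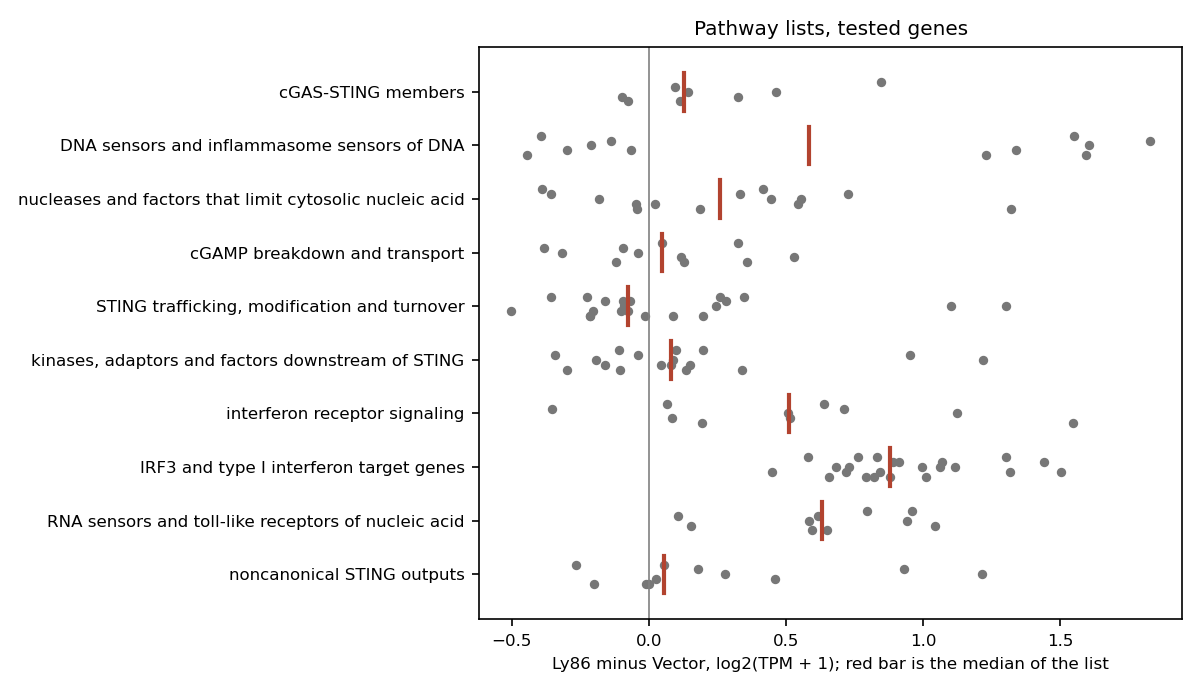
Log2 difference, Ly86 minus Vector on the log2(TPM + 1) scale, of each tested gene (grey points, offset only for legibility) in the 8 members and 9 lists of the pathway, with the list median as a red bar. The targets lie above 0 in 23 of 23 genes with a median of 0.88, and the kinases and adaptors centre on 0.082.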

How the data were processed

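Tumors were sequenced from polyadenylated RNA on a NovaSeq instrument, per the labels' protocols. The submitters' processing notes name STAR 2.7.10b, RSEM 1.3.3 and the mouse build mm39. The authors deposited log2(TPM + 1) values; the scale was read from the values, since 99.9% of them gave TPM that were multiples of 0.01 (within 1e-04 hundredths) and library sums of 994679 to 996446. Pieces were averaged in log2, which made each tumor 1 replicate. Labels number the tumors but name no mice, so a p-value here reflects only how these tumors varied, which may be technical.

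The 14556 genes whose TPM averaged 1 or more were tested with limma 3.58.1 in R 4.3.3 (lmFit, eBayes with trend), two-sided, with Benjamini-Hochberg adjustment over all of them. On this scale, with its pseudocount of 1, low genes show too small a change. The design had assumed TPM, and the same test suited the deposited scale. The members, lists, tests and the naming rule were chosen with earlier results of these data known. The rule named all members, the 2 genes with the smallest p in each list and the 3 nearest genes of each member. A neighbour of Cgas and the summed level of 1 marker list are not reported here. Alternatives were other pseudocounts, filters, scalings, moderation, weights, piece choices, a replicate block and leaving out each tumor. Promoters came from RefSeq (GRCm38.p6) and overlaps from GENCODE on the same build. Python 3.11.15 with matplotlib 3.10.9 served for plots.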

Additional observations from a re-analysis of the deposited data

Results flagged for a closer look

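Of 26 genes examined in the Ly86 tumors (the 8 members and 18 further named genes), Tnf, a cytokine gene on the list of noncanonical STING outputs, had 1 tumor far from the others. It stood at 1.59 log2(TPM + 1) in Ly86 tumor 3, below 2.81, 2.89 and 3.00 in the other tumors of the group. The gap was 0.86 of the group's range, above Dixon's 95% critical value for 4 tumors. Chance alone gives such a tumor in about 1 of 20 groups, so 1 among 26 genes is no more than chance gives. The 3 Vector tumors were not examined in this way.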

How the results depend on the processing

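Sting1, Trex1 and Ifnar2 kept their direction, and no member passed the threshold, in every alternative run. Genes past the threshold numbered 1832 with limma's array weights, which gave Vector tumor 3 a weight of 22.8, 6 with only the second pieces, 1 with only the first pieces, and 1 when the first piece of Vector tumor 2 was left out (chosen after seeing the data). Leaving out 1 tumor gave 0 to 2, with 2 for Ly86 tumor 2 and 1 each for Ly86 tumor 3, Vector tumor 1 and Vector tumor 2. With array weights, which called 12.6% of all tested genes, the counts were 7 of 12 DNA sensors, 5 of 23 targets and 3 of 11 genes of cGAMP handling. They were 3 of 21 for STING trafficking and 2 of 14 for nucleases, each 14.3% and near that share. Receptor signaling had 2 of 10 (20%) and noncanonical outputs 2 of 11 (18.2%), each resting on 2 genes. The counts were 0 of 17 for kinases, adaptors and factors downstream of STING and 0 of 10 for RNA sensors. Vector tumors 1 and 2 had weights of 0.44 and 0.36, so in the Vector group these calls rest mostly on tumor 3. The members' median log2 difference was 0.30 with only second pieces, 0.34 without that first piece, and 0.042 to 0.25 over left-out tumors. Direction turned for Enpp1 (-0.051 with quantile normalization, -0.082 with first pieces, -0.033 with the replicate block) and Tbk1 (-0.014 with first pieces). Over left-out tumors the log2 difference ranged from -0.033 to 0.32 for Enpp1, -0.10 to 0.25 for Irf3, -0.15 to 0.072 for Cgas and -0.15 to 0.0015 for Ifnar1. Tumors with the same number did not deviate together (correlations -0.17, -0.11 and -0.31), so the replicate block pairs samples by number only. Ly86 tumor 4 has no Vector tumor of its number, so the block's estimates equal those with that tumor left out. The block left 0 genes past the threshold and 645 at an unadjusted limma p under 0.05. Without a block that count was 988 with Ly86 tumor 4 left out and 1565 with all tumors. Enpp1 was not tested at a minimum mean of 5 TPM. The median of all genes shifted by under 0.1 in every scaling. Depth is unknown, so counting error could not be given.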
